A study of Mus musculus with 29 samples.

Results

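The fetal mouse ovary at embryonic day 13.5 (E13.5) was profiled by bulk RNA sequencing in mice without a working Cdkn1b gene and in wild-type mice. Cdkn1b encodes p27Kip1, an inhibitor of cyclin-dependent kinases. The groups were chosen from the sample titles. They hold 7 of the 29 libraries of the series, 3 from Cdkn1b -/- ovaries (called p27null, replicates 1, 3 and 4) and 4 from Cdkn1b +/+ ovaries (called WT, replicates 1 to 4). The labels name no treatment and no tissue-specific allele for either group. Ovaries were dissociated with papain before RNA extraction. The labels give neither the strain, nor which fetuses were littermates, nor whether a library holds 1 fetus or several, so p-values measure the spread between these libraries. The E18.5 libraries (4 of each genotype) serve to set the genotype effect at E13.5 beside that at the later age. They also serve to set single E13.5 libraries beside the change from E13.5 to E18.5 in WT.

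p27Kip1 binds complexes of cyclins with their kinases and holds cells in G1, and it is removed by the ubiquitin ligase subunit Skp2 when cells enter the cycle. In the fetal ovary around this age, the germ cells still divide by mitosis as oogonia and begin to enter meiosis, a step that depends on retinoic acid and the transcription factors STRA8 and MEIOSIN. The somatic cells around them include pregranulosa cells, which leave the cell cycle and are known to carry p27Kip1. In a bulk library, fewer cells of a type and less RNA per cell cannot be told apart.

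Libraries held 14.1 to 24.9 M counts. Levels are given in CPM, the counts of a gene per 1000000 counts of tested genes after TMM scaling over the 7 libraries. A gene with 3 counts sits between 0.117 and 0.251 CPM, taken here as the floor. Among 13543 genes compared, WT replicate 3 stood apart most, with 1011 genes more than 2-fold above the median of the other libraries. Haemoglobin genes took 19.0% of its counts and 0.701% to 1.05% in the other 6 libraries. p27null replicate 3 stood apart by genes of meiosis, described below, and results that leaving out a library changes most are also given without it. The ovary label was checked against testis markers: Sry had no count in any of the 7 libraries, and Amh, the Sertoli cell hormone gene, was at most 0.321 CPM. The Y-linked genes Ddx3y, Kdm5d, Uty and Eif2s3y were at most 0.0835 CPM in 6 libraries. In p27null replicate 3 they were between 0.156 and 0.429 CPM, above the floor of that library (0.117 CPM). The whole list of 12 Sertoli cell and Y-linked genes was not silent and summed to 72.2 to 113 CPM per library. Of these genes 6 were tested, 2 higher and 4 lower in p27null, with none at an unadjusted p under 0.05. The check thus rests on Sry and Amh in the 7 libraries, and on the Y-linked genes in 6 of them. The source of the low Y-linked counts in p27null replicate 3 was not tested.

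Cdkn1b (ENSMUSG00000003031, GRCm38 chromosome 6, 134920401 to 134925513, plus strand) measured 25.2, 19.9, 24.1 and 26.5 CPM in WT replicates 1 to 4. In p27null replicates 1, 3 and 4 it measured 4.49, 4.75 and 4.52 CPM. The groups did not overlap, and all 3 p27null libraries carried the remaining signal at nearly the same level. The mean fell from 23.9 ± 2.87 (SD, n = 4) to 4.59 ± 0.143 CPM (SD, n = 3), which was -2.38 on the log2 scale (SE 0.187, edgeR quasi-likelihood test with Benjamini-Hochberg adjustment, adjusted p = 0.0114). The call was lost in 5 of the 7 fits that left out 1 library, with adjusted p up to 0.207, while the fold stayed between -2.46 and -2.31. At E18.5 the log2 fold change was -3.06, and the difference between the ages was -0.68 (SE 0.224, edgeR quasi-likelihood interaction test, adjusted p = 0.302).

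Cdkn1b was the single gene called at an adjusted p under 0.05 among 16508 tested (0.00606%, edgeR quasi-likelihood test). At an unadjusted p under 0.05 there were 576 genes (3.49%), 166 of them higher (1.01%) and 410 lower (2.48%) in p27null ovaries. That number was 345 without WT replicate 1 (2.15%), 345 without both libraries that stood apart (2.07%) and 1506 without p27null replicate 1 (8.75%). The groups did not overlap for 634 genes (3.84%), 259 higher (1.57%) and 375 lower (2.27%). DESeq2 called 65 genes (0.394%), 5 higher (0.0303%) and 60 lower (0.363%). Of the lower genes, 9 belong to the lists of neuron, sympathoadrenal and glial markers (36 tested). Another 16 belong to the skeletal muscle list (22 tested), which was added after the values were seen. The earlier muscle list (15 tested) holds 3 called genes. Under 10 counts in every p27null library were found for 11 of the 36 and 8 of the 22, which thus had to be lower. A fit with all 8 groups of the series called 56 (0.339%), 2 higher (0.0121%) and 54 lower (0.327%), with 36 shared with DESeq2. No gene of the cell cycle lists was called by any of these 3 fits.

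**Figure D1:**
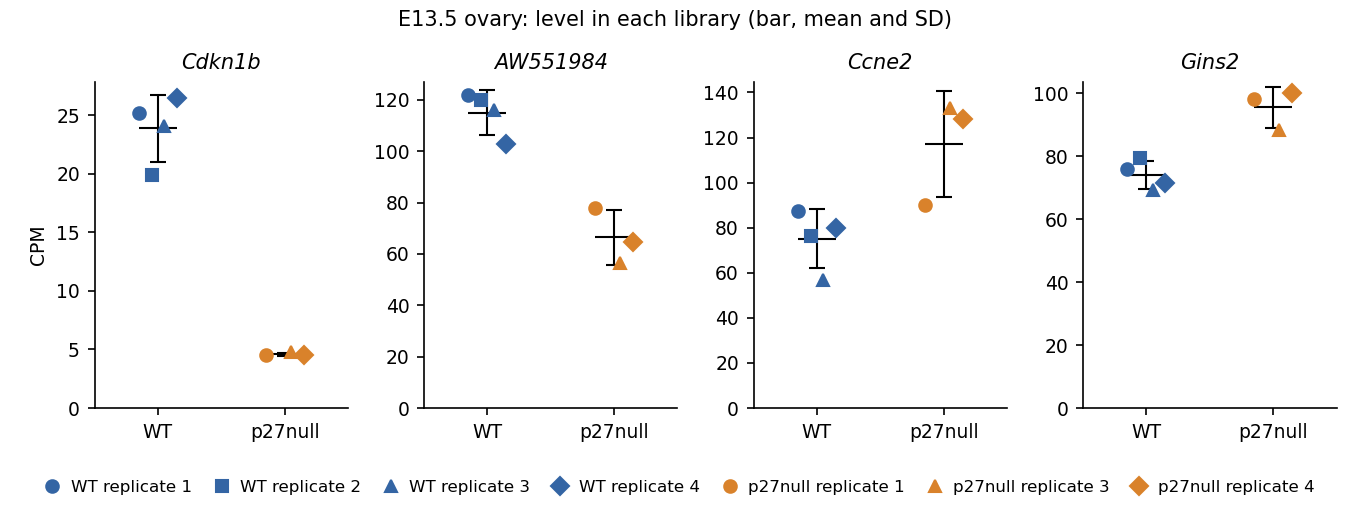
Level of Cdkn1b, AW551984, Ccne2 and Gins2 (CPM, linear axis from 0) in each E13.5 library, with WT in blue and p27null in orange, symbols for replicate numbers, and the mean and SD of each group in black. The groups did not overlap for any of the 4 genes, which the naming rule required of all but Cdkn1b. The p27null mean is 4.59 CPM for Cdkn1b and 66.4 CPM for AW551984.

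Apart from Cdkn1b, the gene with the smallest unadjusted p among those the naming rule picked was AW551984 (chromosome 9, 39587396 to 39604403, minus strand). It measured 122, 120.0, 116 and 103 CPM in the WT libraries and 77.7, 56.6 and 64.8 CPM in the p27null libraries. Every p27null library was below every WT library, and the spread within each group was small against the gap. The rule picked genes by p only where the groups do not overlap (3.84% of genes tested). The lack of overlap in these genes, here and below, was thus fixed by the choice. The difference was -0.80 on the log2 scale (SE 0.138, edgeR quasi-likelihood unadjusted p = 0.000319, adjusted p = 0.988). DESeq2 called it (adjusted p = 0.000431), and the fold ranged from -0.92 to -0.69 when single libraries were left out. At E18.5 its log2 fold change was 0.08 (edgeR quasi-likelihood adjusted p = 0.861), and the difference between ages did not pass (0.87, SE 0.268, edgeR interaction adjusted p = 0.248). Tubb2a, a beta-tubulin gene, measured 71.2, 43.2, 70.0 and 46.5 CPM in WT and 35.2, 27.6 and 29.2 CPM in p27null (log2 fold change -0.91, SE 0.217). For this gene WT replicates 1 and 3 were the high pair, and they are also the 2 libraries with most muscle and neuronal RNA, as given below. A link between these values was not tested. Tubb2a was at -0.80 without WT replicate 1 and at -0.78 without WT replicate 3. Its adjusted p was 0.988 by edgeR quasi-likelihood, and DESeq2 called it.

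Of the genes that were higher in p27null ovaries by the same rule, 2 act in the cell cycle. Ccne2, the cyclin E2 gene whose protein activates the kinase that p27Kip1 inhibits, measured 87.5, 76.1, 56.6 and 80.0 CPM in WT and 90.0, 133 and 128 CPM in p27null libraries. The groups were separate by a narrow margin, since p27null replicate 1 lay just above WT replicate 1. Its log2 fold change was 0.64 (SE 0.187, edgeR quasi-likelihood unadjusted p = 0.00794, adjusted p = 0.988). Gins2, a subunit of the replicative helicase, measured 76.0, 79.4, 69.3 and 71.5 CPM in WT, 98.2 and 88.2 CPM in p27null replicates 1 and 3, and slightly above the first of these in replicate 4. The p27null mean was 95.6 ± 6.49 CPM (SD, n = 3), a log2 difference of 0.37 (SE 0.108). All p27null libraries lay above all WT libraries for Gins2, as the rule required. The unadjusted p was 0.00825 and the adjusted p 0.988 in the edgeR quasi-likelihood test. Both genes were also higher at E18.5, with log2 fold changes of 0.66 and 0.72 (edgeR quasi-likelihood adjusted p = 0.041 and 0.00804). Pigp, which acts in the first step of glycosylphosphatidylinositol anchor synthesis, had a log2 fold change of 0.69 (SE 0.201). Chchd6, a mitochondrial cristae organizing protein, was at 0.46 (SE 0.143), and Rmi1, a partner of the BLM helicase, at 0.48 (SE 0.151). None of the 3 passed adjustment (edgeR quasi-likelihood adjusted p = 0.988 each).

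The cell cycle genes as a whole lay close to no difference at E13.5. Across cyclins and their kinases, the Rb and E2F group, DNA replication and mitosis, 92 of 92 listed genes were tested, 57 were higher and 35 lower, and the median log2 fold change was 0.05, against -0.01 over all genes tested. At an unadjusted p under 0.05, 2 of the 92 were higher (Ccne2 and Gins2; background 1.01%) and none was lower (background 2.48%). The replication list had 26 of 29 genes higher, with a median of 0.11 and a range of -0.21 to 0.39. Without WT replicate 3 and p27null replicate 3, 19 of 29 were higher and the median was 0.04. The mitosis list had 15 of 29 genes higher, with a median of 0.01. Summed over the 4 lists, the level was 12662, 11913, 11876 and 12034 CPM in WT and 12129, 12264 and 12329 CPM in p27null, so the groups overlapped and differed by a few percent at most.

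Single genes of the cell division machinery gave the same picture. Cdc20, the activator of the anaphase-promoting complex, measured 154, 159, 164 and 186 CPM in WT and 154, 169 and 177 CPM in p27null libraries. Plk1, a mitotic kinase, measured 131, 139, 121 and 122 CPM in WT and 132, 129 and 138 CPM in p27null. Mcm3, a subunit of the replicative helicase, measured 294, 287, 273 and 298 CPM in WT and 271, 331 and 281 CPM in p27null. In all 3 genes the groups overlapped, and the log2 fold changes of 0.01 (SE 0.113), 0.05 (SE 0.103) and 0.03 (SE 0.111) were smaller than their errors. Skp2, the ligase subunit that removes p27Kip1, measured 104 to 127 CPM in WT and 103 to 133 CPM in p27null. Ccne1, the other cyclin E gene, measured 56.7 to 86.3 and 59.5 to 66.2 CPM.

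Of the other inhibitors of the same family, Cdkn1c (p57Kip2) measured 1070 to 3200 CPM in WT and 2240, 2100 and 1480 CPM in p27null. WT replicates 2 and 3 were high and the other 2 low, and the p27null values lay between them. Cdkn1a (p21Cip1) measured 45.3 to 69.5 CPM in WT and 32.1 to 53.5 CPM in p27null. Over the 7 CDK inhibitor genes, 4 were higher and 3 lower, and Cdkn1b was the single member with an unadjusted p under 0.05.

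At E18.5, 61 of the 92 cell cycle genes were called higher in p27null (background 3.32%), with a median log2 fold change of 0.85. The difference between the 2 ages was tested as an interaction over the 15 fetal libraries, and 76 of 18052 genes were called (0.421%), 74 with a higher effect at E18.5 (0.41%) and 2 with a lower one (0.0111%), Pdcd4 and Gm14681. The cell cycle lists hold 26 of the 76. At E13.5 the 74 genes centred on a log2 fold change of 0.02 (median), none had an unadjusted p under 0.05, and 67 lay within 0.2 of 0. At E18.5 their median was 1.17. These genes were picked for a difference between the ages, so a small value at one age beside a large one at the other is in part fixed by the choice. Of genes picked by E18.5 alone, 537 were called higher there and tested at E13.5, where their median was 0.06. At an unadjusted p under 0.05, 7 of them were higher (background 1.01%) and 2 lower (background 2.48%). Without WT replicate 3 and p27null replicate 3 of E13.5, 17 genes were called, all among the 76, and 12 of them in the cell cycle lists.

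The levels show where the ages part, on a scale set over the 15 fetal libraries. Cdc20 measured 169 ± 19.7 (SD, n = 4) in WT and 176 ± 15.0 CPM (SD, n = 3) in p27null ovaries at E13.5. At E18.5 it measured 43.7 ± 5.18 CPM in WT and 136 ± 8.47 CPM in p27null (SD, n = 4 each). The WT level at E18.5 was thus far below that of E13.5, and the p27null level was closer to it, with an interaction of 1.57 on the log2 scale (SE 0.144, edgeR quasi-likelihood adjusted p = 0.000231). Cdt1, which loads the replicative helicase, had an interaction of 1.49 (SE 0.194, edgeR adjusted p = 0.00427), and Cdc6, its partner, 1.81 (SE 0.262, edgeR adjusted p = 0.00691). Mcm3 (1.22), Plk1 (1.53) and Top2a, the DNA topoisomerase of mitosis (1.43), were also called by this test. Of Ccne2 and Gins2, neither differed between the ages by the same test (0.01, SE 0.26, and 0.35, SE 0.156, edgeR interaction adjusted p = 0.994 and 0.48).

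**Figure D2:**
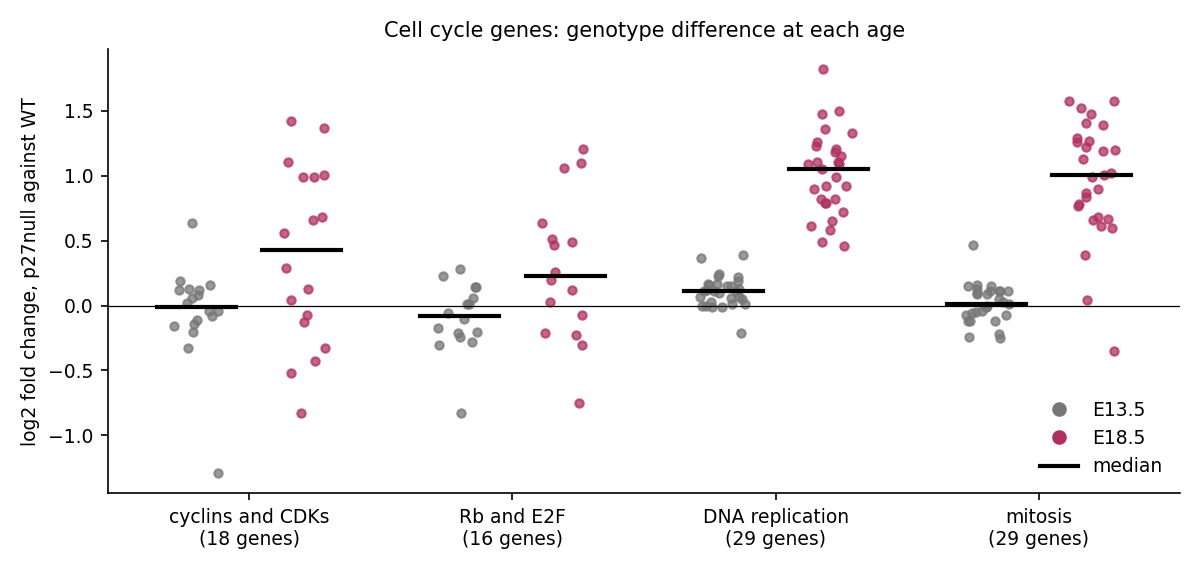
Log2 fold change of p27null against WT (vertical axis) for each tested gene of 4 cell cycle lists, at E13.5 in grey and at E18.5 in red, with the median of each list as a black bar. The E13.5 medians lie between -0.08 and 0.11, while those of replication and mitosis at E18.5 are 1.05 and 1.01.

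Promoters of the replication genes were searched for TTTGGCGC and TTTCCCGC, forms of the binding site of E2F, the transcription factor that is freed when cyclin-dependent kinases phosphorylate the Rb protein. The search covered both strands of 300 bases around each RefSeq start (250 before, 50 after; GRCm38.p6). At least 1 match stood in 9 of the 24 replication genes that the table holds, in 8 of 41 meiotic list genes (Meioc, Sycp3 and Dmc1 among them), and in 1.8% of all genes in the table. The stretches upstream of Mcm6 (chr1:128359737-128359824, minus strand) and Mcm5 (chr8:75109288-75109375, plus strand), both helicase subunits, are shown because they hold such matches outside any annotated gene. They are written 5′ to 3′ in gene orientation, with the matches in capitals.
Mcm6: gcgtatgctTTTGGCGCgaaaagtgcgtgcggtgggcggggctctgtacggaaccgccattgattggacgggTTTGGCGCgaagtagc
Mcm5: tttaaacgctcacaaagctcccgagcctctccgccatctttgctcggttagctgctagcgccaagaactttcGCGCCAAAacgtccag
Mcm6 measured 610.0, 625, 534 and 656 CPM in WT and 589, 724 and 676 CPM in p27null libraries at E13.5, and the groups overlapped. Its effect was larger at E18.5 than at E13.5 by 1.02 on the log2 scale (SE 0.175, edgeR interaction adjusted p = 0.0161). Mcm5 measured 230.0 to 248 CPM in WT and 230.0, 319 and 246 CPM in p27null, and its difference between ages of 0.95 (SE 0.217) did not pass (edgeR adjusted p = 0.0816). A match is a description of the letters in these windows and not of binding.

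The germ cell genes differed among the p27null libraries more than between the genotypes. Stra8, which starts meiosis, measured 7.60, 6.35, 5.51 and 11.0 CPM in WT, 2.69 and 6.84 CPM in p27null replicates 1 and 4, and 75.4 CPM in p27null replicate 3. Meioc, which stabilizes the meiotic programme, measured 7.19 to 13.6 CPM in WT, 2.95 and 10.4 CPM in replicates 1 and 4, and 134 CPM in replicate 3. In both genes 1 library was many fold above all others, while the remaining p27null libraries lay within or below the WT range. The log2 fold changes were 1.89 (SE 0.949) for Stra8 and 2.42 (SE 1.07) for Meioc, and without p27null replicate 3 they were -0.68 and -0.46. Neither passed in any of these fits.

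The same library led in genes of every later step. Sycp3, of the chromosome axis, measured 12.2 to 14.1 CPM in WT, 9.75 and 25.5 CPM in p27null replicates 1 and 4, and 95.7 CPM in replicate 3. Tex12, of the synaptonemal complex, measured 5.65 to 8.23 CPM in WT and 4.36, 58.4 and 8.08 CPM in p27null replicates 1, 3 and 4. Terb1, which ties telomeres to the nuclear envelope, measured 0.919 to 1.70 CPM in WT and 0.962, 17.6 and 0.485 CPM. Rec8, the meiotic cohesin, was at 117 CPM in replicate 3 and 34.7 to 56.7 CPM elsewhere. Hfm1, a recombination helicase, was at 25.0 CPM against 5.77 to 9.44 CPM.

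Prdm9, which marks the sites of meiotic recombination, was the meiotic gene among the 12 higher genes that the rule named. It measured 0.855, 0.583, 0.919 and 0.805 CPM in WT and 1.54, 12.7 and 1.67 CPM in p27null replicates 1, 3 and 4. All p27null libraries were above all WT libraries, as the rule required, and replicate 3 lay far above the others. The log2 fold change was 2.74 (SE 0.756, edgeR quasi-likelihood unadjusted p = 0.00595, adjusted p = 0.988). The fit with all 8 groups called it (2.76, edgeR quasi-likelihood adjusted p = 0.0168), but was not run without p27null replicate 3. DESeq2 called no gene of the meiotic lists. In the E13.5 fit without p27null replicate 3, the log2 fold change of Prdm9 was 1.02 (edgeR quasi-likelihood unadjusted p = 0.0602). Gm4969, the MEIOSIN gene, measured 3.17 to 4.47 CPM in WT and 5.71, 25.8 and 3.72 CPM in p27null. Its log2 fold change of 1.61 (SE 0.601) became 0.29 without replicate 3.

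Over the lists of meiotic entry, synaptonemal complex and recombination, 39 genes were tested, 37 were higher in p27null, and 8 were higher at an unadjusted p under 0.05 (background 1.01%), with a median log2 fold change of 0.77. Without p27null replicate 3 the count was 19 of 39 higher and 1 at that p (background 0.935%), and the median was -0.01. The summed level was 844, 871, 883 and 842 CPM in WT and 712, 2158 and 1050 CPM in p27null replicates 1, 3 and 4. The 4 WT libraries lay within a narrow band, and the 3 p27null libraries lay below it, far above it and somewhat above it. Leaving out p27null replicate 4 instead gave a median of 0.97.

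**Figure D3:**
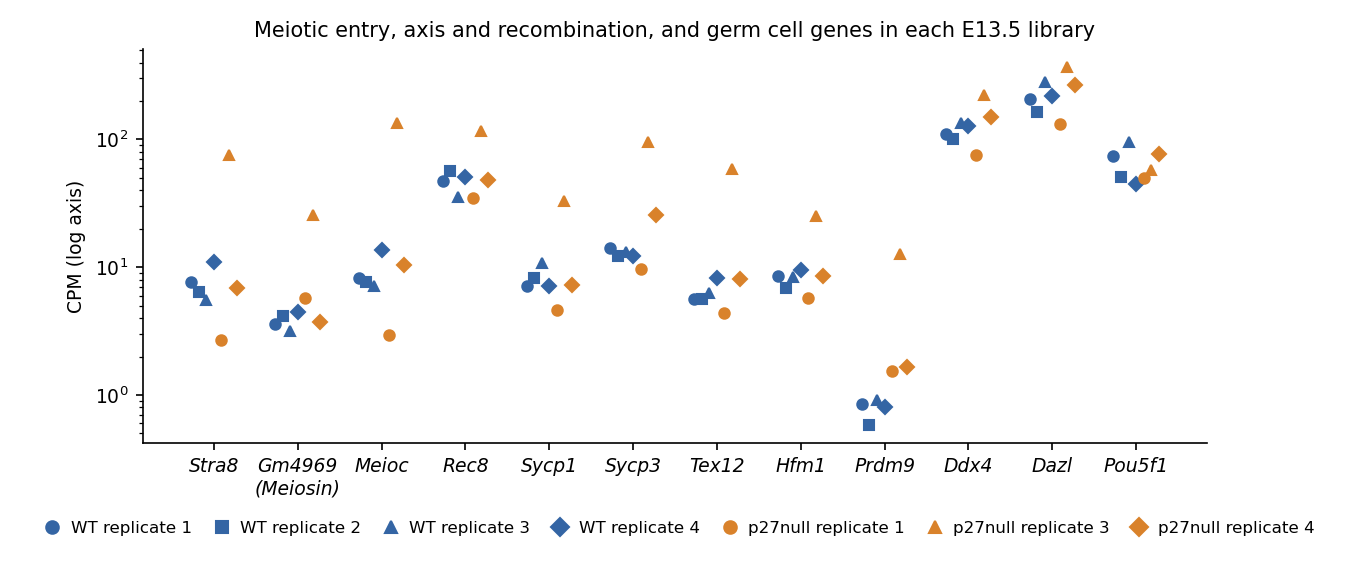
Level (CPM, log axis) of 9 meiotic genes and of the germ cell genes Ddx4, Dazl and Pou5f1 in each E13.5 library, with WT in blue, p27null in orange and symbols for replicate numbers. p27null replicate 3 is the highest library for the 11 genes from Stra8 to Dazl and lies at 58.0 CPM for Pou5f1, between the WT values of 45.0 and 96.1 CPM.

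STRA8 and MEIOSIN are known to bind a motif that contains CNCCTCAG, and the RefSeq promoters were searched for it on both strands. It stood in 9 of 41 meiotic list genes in the table and in 9.12% of all genes. The stretches upstream of Prdm9 (chr17:15564380-15564467, minus strand) and of the MEIOSIN gene (chr7:19118373-19118460, minus strand) are shown, since these 2 genes led in p27null replicate 3 and overlap no annotated gene there. The match is in capitals, 5′ to 3′ in gene orientation, from RefSeq on GRCm38.p6.
Prdm9: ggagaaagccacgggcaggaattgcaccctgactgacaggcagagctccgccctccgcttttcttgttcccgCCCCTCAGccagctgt
Gm4969 (MEIOSIN): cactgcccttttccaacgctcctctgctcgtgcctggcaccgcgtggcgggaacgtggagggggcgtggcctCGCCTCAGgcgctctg

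Levels in WT at E18.5, when oocytes are in meiotic prophase, are set beside those of p27null replicate 3, on the scale over 15 fetal libraries. Stra8 was 0.191 ± 0.162 CPM in WT at E18.5 (SD, n = 4), against 80.3 CPM in p27null replicate 3 and a WT mean of 7.83 CPM at E13.5. Sycp3 was 407 ± 169 CPM at E18.5, 102 CPM in p27null replicate 3 and 13.1 CPM in WT at E13.5. Prdm9 was 8.93 ± 2.07 CPM at E18.5 and 13.5 CPM in that library. The library thus had Stra8 above both ages, Sycp3 between them and Prdm9 at or above the later one. Pou5f1, the pluripotency gene of primordial germ cells, was 0.801 ± 0.571 CPM in WT at E18.5 and 61.8 CPM in p27null replicate 3, against a WT mean of 66.6 CPM at E13.5.

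Other genes moved with this library as well. Embryonic chains made 9.61% of the counts of the beta-like globin genes Hbb-y, Hbb-bh1, Hbb-bs and Hbb-bt in p27null replicate 3, and 44.7% to 77.3% in the other 6 libraries of this age. At E18.5 the share was at most 0.298% in any library. Liver genes were also high there, with Alb at 15.0 CPM against 0.095 to 5.76 CPM and Apoa2 at 21.7 CPM against 0.358 to 3.59 CPM in the other libraries. The list of interferon-induced genes summed to 183 CPM in it and 77.4 to 145 CPM elsewhere. The part of these features in the meiotic values was not tested.

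Each p27null library was also set against the other 2 and beside the step from E13.5 to E18.5 in WT, which uses none of them. In p27null replicate 3, 186 of 13476 genes were at least 2-fold above both others, and 81 of these (43.5%) were called higher at E18.5 in WT, against 14.7% of all genes compared. In p27null replicate 1, 325 genes were at least 2-fold above both others. Of these, 10 (3.08%) were called higher in WT at E18.5 and 160 were called lower, against 20.1% called lower among all genes compared. In p27null replicate 4 the numbers were 100 genes, 11 called higher (11.0%) and 26 called lower. In p27null replicate 3, 23 of the 186 were called lower. Of genes at least 2-fold below both others, 12.5% (replicate 1), 38.2% (replicate 3) and 31.8% (replicate 4) were called lower at E18.5. The 3 libraries of 1 genotype and labelled age thus differed in genes that change between the ages in WT. The mesonephric tubule and duct list summed to 333, 160 and 125 CPM in p27null replicates 1, 3 and 4. In WT replicates 1 to 4 it summed to 376, 225, 111 and 253 CPM, so it varied in both genotypes. Its median step from E13.5 to E18.5 in WT was -2.42 on the log2 scale. The part of stage or of tissue content in these counts was not tested.

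Levels of germ cell genes from before meiosis overlapped between the genotypes. Pou5f1 measured 73.7, 50.6, 96.1 and 45.0 CPM in WT and 50.1, 58.0 and 76.4 CPM in p27null, and Nanog measured 13.3 to 19.8 CPM in WT and 7.40 to 20.1 CPM in p27null. Of 20 tested genes of the primordial germ cell and pluripotency list, 6 were higher and 14 lower, with none at an unadjusted p under 0.05 and a median log2 fold change of -0.21. Without p27null replicate 4, 18 of 20 were lower, 6 at an unadjusted p under 0.05 (background 1.82%), with a median of -0.52, and without both libraries that stood apart 13 of 20 were higher with a median of 0.07. Dazl, which licenses germ cells for sexual differentiation, measured 208, 164, 281 and 217 CPM in WT and 132, 368 and 265 CPM in p27null. Ddx4, a germ cell RNA helicase, measured 101 to 134 CPM in WT and 75.4, 223 and 151 CPM. In both genes the p27null libraries spanned the WT range, replicate 1 below it and replicate 3 above. The list of licensed germ cell genes had 19 of 21 higher with a median of 0.35, and 5 of 21 with a median of -0.08 without p27null replicate 3.

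The somatic lineage of the ovary showed no called gene. Foxl2, a transcription factor that keeps granulosa cell identity, measured 6.18, 17.8, 10.6 and 4.25 CPM in WT and 8.79, 17.0 and 9.48 CPM in p27null. Wnt4, a signal of ovarian differentiation, measured 25.9 to 51.3 CPM in WT and 24.2 to 46.6 CPM in p27null, and Rspo1, which strengthens that signal, 8.41 to 19.5 and 10.8 to 19.5 CPM. Each of these genes overlapped between genotypes over most of its range. Of 19 tested pregranulosa genes, 14 were higher and none had an unadjusted p under 0.05, with a median log2 fold change of 0.21, which was 0.04 without both libraries that stood apart. Nr5a1, the steroidogenic factor gene of the gonad, measured 66.6 ± 24.8 CPM (SD, n = 4) in WT and 79.6 ± 19.1 CPM (SD, n = 3) in p27null. The lists of retinoic acid, Notch and hedgehog, BMP and TGF-beta, FOXO and PI3K, and BCL2 and p63 genes had medians from -0.16 to -0.05 and no gene at an unadjusted p under 0.05. Of 20 gonadal somatic transcription factors, 10 were higher and 10 lower, 1 of the lower at such a p. Of 15 stroma and mesenchyme genes, 12 were lower, 3 of them at such a p (background 2.48%). Their median was -0.31, and from -0.47 to -0.12 with single libraries left out.

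Some of the 12 lower genes that the rule named by p are known from other tissues than the gonad, beside Cdkn1b, AW551984 and Tubb2a. Th and Chgb belong to sympathetic and adrenal medullary cells, Myot and Actn3 to muscle fibres, and Eya4, Shox2 and Mab21l2 are developmental transcription regulators. Th, the first enzyme of catecholamine synthesis, measured 76.4, 7.75, 3.34 and 18.4 CPM in WT and 0.706, 0.546 and 0.377 CPM in p27null (log2 fold change -5.61, SE 1.21). Chgb, a secretory granule protein, measured 28.2, 8.10, 4.01 and 112 CPM in WT and 0.577, 0.117 and 0.592 CPM in p27null (-6.54, SE 1.47). The groups did not overlap, as the rule required. The WT libraries differed among themselves far more than the p27null libraries did, and a different WT library was highest for each gene.

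Eya4 measured 6.65, 1.05, 9.19 and 4.34 CPM in WT and 0.385, 0.390 and 0.377 CPM in p27null (-3.76, SE 0.729). Ppfia2, a synaptic scaffold gene, had a log2 fold change of -5.24 (SE 1.04), Mab21l2 of -5.73 (SE 1.2), Shox2 of -5.34 (SE 1.24), Myot of -4.04 (SE 0.965) and Actn3 of -1.30 (SE 0.316). All of these genes had an edgeR quasi-likelihood adjusted p of 0.988, and DESeq2 called every one of them. Ppfia2, Mab21l2 and Shox2 had under 10 counts in every p27null library, so they were tested through their WT levels and had to be lower. Shox2 fell out of the test without WT replicate 1, 3 or 4.

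The lists behind these genes moved together in the WT libraries. The skeletal muscle list summed to 1201, 36.7, 2370 and 129 CPM in WT replicates 1 to 4 and to 14.2, 35.3 and 24.1 CPM in p27null. The lists of neurons, sympathoadrenal cells and glia together summed to 2000.0, 195, 516 and 440.0 CPM in WT and 255, 127 and 115 CPM in p27null. WT replicate 1 was highest for the neural lists and WT replicate 3 for muscle, and in both cases WT replicate 2 lay near the p27null libraries. Of 36 tested neural genes, 35 were lower and 29 had an unadjusted p under 0.05 (background 2.48%), with a median log2 fold change of -3.07. Without WT replicate 1, 15 of 28 had such a p (background 1.66%), and the median was -1.76. Without both libraries that stood apart, 14 of 37 did (background 1.08%), and the median was -3.20. Of these 36 genes, 11 had under 10 counts in every p27null library, so they passed the filter on low counts through the WT libraries and had to be lower. The same holds for 8 of the 22 muscle genes, a list added after the values were seen. At E18.5 the median of the neural lists was 0.05, over the 20 genes tested there and not the 36 of E13.5.

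**Figure D4:**
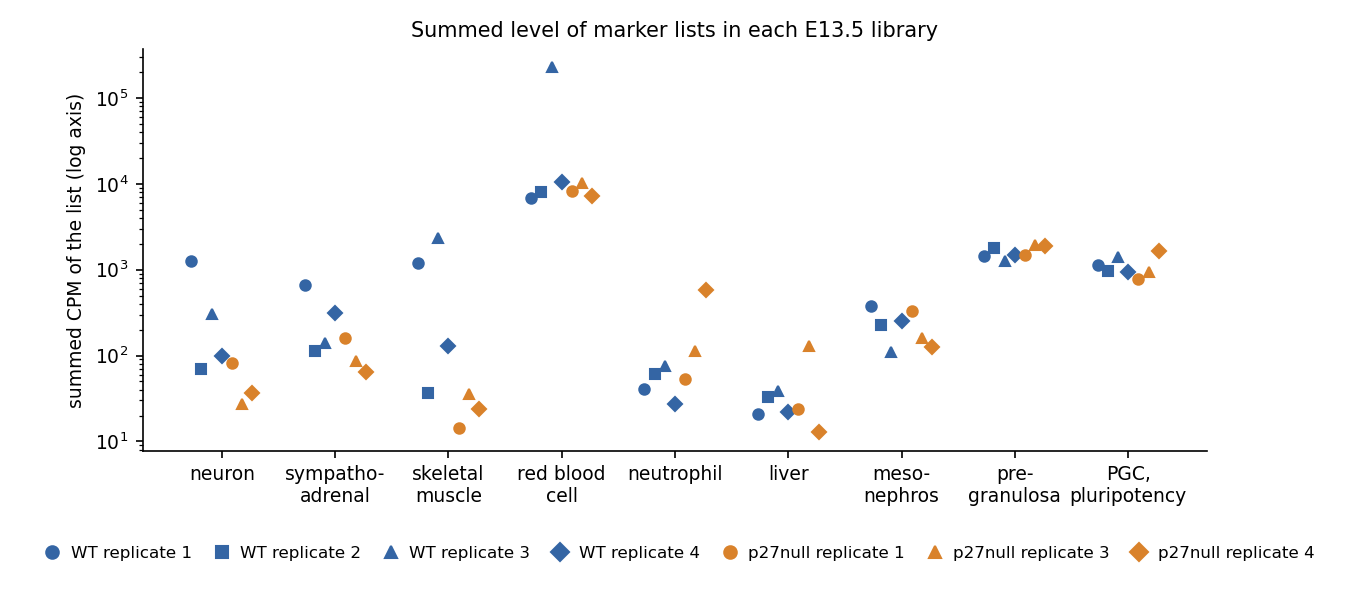
Summed level (CPM, log axis) of 9 marker lists in each E13.5 library, with WT in blue, p27null in orange and symbols for replicate numbers. Neuron, skeletal muscle and red blood cell genes vary most among the WT libraries, with red blood cell sums of 227220 CPM in WT replicate 3 and 6894 to 10515 CPM in the other 6, while pregranulosa sums lie between 1278 and 1941 CPM.

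Tubb3, a neuronal tubulin, shows the pattern in 1 gene. It measured 115, 2.97, 30.6 and 4.56 CPM in WT and 2.05, 2.53 and 1.29 CPM in p27null, so WT replicates 2 and 4 lay close to p27null. Myog, a muscle differentiation factor, measured 56.9, 0.641, 136 and 5.10 CPM in WT and 0.513, 2.45 and 1.29 CPM in p27null. For Myog the groups overlapped. The part of such tissue in the differences between the genotypes was not tested.

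The red blood cell list followed WT replicate 3. Hbb-y, the embryonic globin, measured 51300.0 CPM in that library and 373 to 2100.0 CPM in the other 6. All 20 genes of the list were lower in p27null with a median log2 fold change of -2.10, and without WT replicate 3 the median was 0.53, with 14 of 20 higher. Without both libraries that stood apart the median was -0.03, with 9 higher and 11 lower. Hsd3b6, a steroid dehydrogenase gene, measured 1140.0 CPM in WT replicate 3 and 5.42 to 51.5 CPM elsewhere. Cdh16, a cadherin of kidney and mesonephric tubules, measured 0.585 CPM in WT replicate 3 and 0.915 CPM in p27null replicate 4, and 20.6 to 83.5 CPM in the other 5. It was thus low in 1 library of each genotype. Removing the globin genes from the table left Cdkn1b as the single gene called.

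Neutrophil granule genes were the largest group among the named higher genes. Camp, which encodes the antimicrobial peptide cathelicidin, measured 2.28, 1.46, 2.42 and 1.34 CPM in WT and 3.14, 7.40 and 42.7 CPM in p27null replicates 1, 3 and 4. S100a8, a subunit of calprotectin, measured 4.85 to 5.68 CPM in WT and 6.48, 12.0 and 82.1 CPM in p27null. All p27null libraries were above all WT libraries for both genes, as the rule required, and replicate 4 held most of the signal. The log2 fold changes were 3.25 (SE 0.798) and 2.66 (SE 0.766), each with an edgeR quasi-likelihood adjusted p of 0.988, and DESeq2 called both. S100a9, Hp, Prtn3 and BC100530 followed, with log2 fold changes of 2.75, 2.11, 0.97 and 2.97. The neutrophil list, added after the values were seen, summed to 41.2, 60.4, 75.5 and 27.3 CPM in WT and 53.8, 112 and 582 CPM in p27null. Its sums overlapped between the groups, and its median log2 fold change of 2.34 was 0.88 without p27null replicate 4. Of its 16 tested genes, 2 had under 10 counts in every WT library, so they passed the filter through p27null and had to be higher.

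Genes near the targeted locus were counted, since they are inherited with the allele. Within 5 Mb of Cdkn1b 40 other genes were tested, and 1 of them, Apold1, had an unadjusted p under 0.05 (2.5%, against 3.49% of all genes). Apold1 (chromosome 6, 134981718 to 134986836, plus strand), an endothelial early response gene, begins 56.2 kb downstream of Cdkn1b. It measured 4.13, 3.73, 6.52 and 6.49 CPM in WT and 1.86, 1.79 and 2.91 CPM in p27null. The groups did not overlap, and the log2 difference was -1.25 (SE 0.361, edgeR quasi-likelihood unadjusted p = 0.00756, adjusted p = 0.988). At E18.5 its log2 fold change was -1.45 (edgeR quasi-likelihood adjusted p = 0.0184). Over the whole chromosome, 31 of 836 genes had such a p (3.71%). Of the kidney list, Osr1, a regulator of intermediate mesoderm, measured 22.1 to 38.8 CPM in WT and 14.9 to 23.7 CPM in p27null (log2 fold change -0.74, SE 0.259), and Eya1, its partner in kidney development, was lower by -3.19 (SE 1.13), with WT replicate 1 at 39.9 CPM. Without that library its value was -1.37. Neither passed adjustment (edgeR quasi-likelihood adjusted p = 0.988 each).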

How the data were processed

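Ovary RNA was sequenced in 29 libraries, of which the 7 of E13.5 carry this report and the 8 of E18.5 serve the test between ages. The authors deposited RSEM expected counts per Ensembl gene, which are estimated counts that need not be whole, per the file headers. Trim Galore, STAR 2.5.2, RSEM 1.3.0 and FastQC 0.11.5 are listed in the submitters' processing notes. The genome build and annotation release are not given in the sources used here. The header names a folder of 2 combined projects without saying which libraries came from which, so a batch of that kind could not be examined.

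Of 51912 gene IDs, 51633 matched a symbol and position in GENCODE M21 (GRCm38), and 30.0% of the E13.5 values above 0 were not whole. RSEM divides reads among similar genes, so values of near-identical copies, and of overlapping or antisense genes, are uncertain. Counts were rounded and tested with edgeR 4.0.16 (R 4.3.3): TMM scaling, filterByExpr (minimum count 10, minimum total 15), robust quasi-likelihood F test on the 7 libraries, Benjamini-Hochberg adjustment, threshold 0.05. SE is the log2 fold change divided by the square root of F. The interaction was fitted over the 15 fetal libraries. The common biological coefficient of variation was 0.348. The floor covers counting error alone, as the reads carried no stated molecular identifiers. The fits were tested on simulated data. All replicate pairs differed beyond sampling noise.

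The 35 gene lists (580 symbols, 1 unmatched) and the groups were chosen with earlier results of these data known, so no list has a p-value, and 3 lists (neutrophil, interferon, skeletal muscle) were added after the values were seen. Genes were named by a rule: Cdkn1b and called genes, the 12 higher and 12 lower with the smallest p among genes that average 2 CPM or more and whose groups do not overlap, up to 5 list members by level and 3 by p, the 8 most extreme genes each way in the 2 libraries that stand apart, 8 interaction genes, and genes within 5 Mb of Cdkn1b with an unadjusted p under 0.05. Any other gene named was chosen after its values were seen, and some genes that the rule names are not reported here. Alternatives were RLE scaling, no filter, DESeq2 1.42.0, limma-voom (limma 3.58.1) with sample weights, the replicate number as a block, globin genes removed, all groups in 1 fit, and leaving out each library or both that stand apart. Promoter sequences are RefSeq's on GRCm38.p6.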

Additional observations from a re-analysis of the deposited data

Results flagged for a closer look

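Wild-type values were examined for a library far from the other 3, over 104 genes and lists, and 9 stood out. Chance gives about 1 in 20 for independent values. Here genes and the lists that hold them were both counted, and WT replicate 3 was singled out beforehand for its haemoglobin. The count is thus a description and not a test. In WT replicate 1, Eya1 was at 39.9 CPM, with 1.69 to 6.43 CPM in the other WT libraries. WT replicate 3 held 7 of the 9: Hbb-y at 51300.0 CPM (others 1510.0 to 1570.0), Hbb-bs at 12000.0 CPM (others 581 to 1460.0) and Hsd3b6 at 1140.0 CPM (others 26.8 to 37.7). It also had Foxd1, a gene of kidney stroma, at 3.01 CPM (others 0.699 to 0.998), and the highest sums of the red blood cell list at 227220 CPM (others 6894 to 10515), the steroidogenesis list at 1278 CPM (others 177 to 228) and the BCL2 and p63 list at 1317 CPM (others 885 to 924). In WT replicate 4 the stress list summed to 5762 CPM, with 4351 to 4471 CPM in the other WT libraries.

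The genotype effect at E18.5 differed from that at E13.5 by the interaction test for Cdc20 (1.57 on the log2 scale), Cdc6 (1.81), Cdt1 (1.49), Plk1 (1.53), Top2a (1.43), Mcm3 (1.22) and Mcm6 (1.02), each higher at E18.5.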

How the results depend on the processing

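Cdkn1b kept its direction in every fit run. The number of genes called at E13.5 (1) was 65 with DESeq2, 56 with all groups in 1 fit, 0 without both libraries that stand apart, 0 with the replicate block without replicate 3 of both genotypes, and from 0 to 1 when single libraries were left out, the 1 being Cdkn1b without WT replicate 2 or 3. The replicate numbers showed no clear pairing of the E13.5 libraries. Same-numbered libraries deviated with correlations of 0.16, 0.00 and -0.03, and not every library correlated best with its own number. These 3 correlations cannot exclude a pairing, and the E18.5 libraries were not examined in this way. With the replicate block, 1 gene was called, a muscle gene, and Cdkn1b had a log2 fold change of -2.46 that missed the threshold. Cdkn1b was -2.38 without both libraries that stand apart and -2.50 with the block without replicate 3 of both genotypes, each past no threshold, and from -2.46 to -2.31 with single libraries left out. The cause was not tested, beyond the fewer libraries in these fits.

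The number of genes whose effect differed between ages (76) was 317 with DESeq2, 160 with limma-voom, 2 with the replicate block, 17 without both libraries that stand apart, and from 32 to 127 with single libraries left out. The cause was not tested. With the block, Cdc20 stayed under the threshold and the other 6 interaction genes named did not. Without p27null replicate 3, the E13.5 log2 fold change reversed for Stra8 (-0.68), Meioc (-0.46), Tex12 (-0.05) and Mcm3 (-0.06). Without both libraries these 4 were -0.77, -0.52, -0.04 and -0.06, and with the block without replicate 3 of both genotypes they were -1.06, -0.89, -0.18 and -0.08. Cdc20, at 0.01, was -0.01 with either block fit and from -0.03 to 0.09 with single libraries left out. In those fits Stra8 ranged from -0.68 to 2.43, Meioc from -0.46 to 2.97, Tex12 from -0.05 to 2.37 and Mcm3 from -0.06 to 0.09. At this spread, genes that differ by little could not be told from no difference.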
